A study of Mus musculus with 6 samples.

Results

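The genes described here are 9 transcription factors that define the somatic cells of the testis: Sox9, Sox8, Wt1, Gata1, Gata4, Gata6, Nr5a1, Nr0b1 and Tcf21. They were taken by symbol from the 23253 genes listed in any of the 6 deposited tables, and all 9 were present in every table, each as a single gene. The libraries were made from oligo(dT)-selected testis RNA of mice aged 8 months, given as C57BL/6. Of the libraries, 3 carry the genotype L3mbtl2 cKO, a conditional knockout of a gene for a Polycomb protein, and 3 the genotype control. The labels do not name the deleter line or the cells in which the gene was removed, and they do not tell whether a group's libraries stem from different mice. The p-values therefore speak of variation among the 6 libraries, part of which may be technical.

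A seminiferous tubule consists of germ cells held by Sertoli cells, and the space between tubules holds Leydig cells, which make testosterone, along with stroma, vessels and macrophages. Sox9 carries the decision for the Sertoli fate in the embryonic mouse gonad, its relative Sox8 acts beside it, and Wt1 maintains the Sertoli lineage. Nr5a1 (steroidogenic factor 1) is made in both Sertoli and Leydig cells and drives steroidogenic genes; Nr0b1 (DAX1) is a repressor that binds it. Gata4 and Gata6 are zinc finger factors of both cell types, Gata1 is a Sertoli factor in the mouse testis and the master factor of red cells in the marrow, and Tcf21 marks stromal progenitors.

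The direction of every difference depends on the labels, and the targeted gene goes against them. For L3mbtl2 the tables give expected counts of 1030, 1105 and 1031 for the libraries labelled cKO, against 658, 704.92 and 673 for those labelled control, a log2 fold change of 0.67 (SE 0.10). In FPKM the gap was smaller, at 16.3 ± 0.663 in the libraries labelled cKO and 14.2 ± 0.660 in those labelled control (SD, n = 3 each), as the length used ran from 3489 to 3498 bases in the libraries labelled cKO and from 2652 to 2838 in those labelled control. limma on log2(FPKM + 1) gave a difference of 0.19 with an adjusted p of 0.224, and the adjusted p on counts was 0.166 by edgeR and 0.00031 by DESeq2. In the names of the tables the genotypes stand the other way round than in the sample titles. Groups follow the titles here, and the libraries are called "labelled cKO" and "labelled control" for that reason. The libraries held 17689205 to 18822050 expected counts each. Those labelled control were less alike than those labelled cKO, with correlations of log2 CPM (counts scaled to library size) across genes of 0.937 to 0.972 within the control group and 0.981 to 0.982 within the cKO group. Germ cells of the testis were plainly present in all 6 libraries: the summed FPKM of 8 spermatid markers was 23481 to 25814 in the libraries labelled cKO and 16241 to 22812 in those labelled control. Of 7 epididymis and rete markers, Lcn5 and Lcn8 were not listed in any library, 4 were below the count filter, and Rnase10 was tested, with 80, 1 and 67 counts in the libraries labelled cKO, against 24, 0 and 40 in those labelled control.

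In build GRCm38.p6 Sox9 lies on chromosome 11 (112782210 to 112787757), Sox8 on 17 (25565893 to 25570686), Wt1 on 2 (105126529 to 105173614), Gata1 on X (7959260 to 7976663) and Gata4 on 14 (63198914 to 63271712). Nr5a1 lies on chromosome 2 (38692656 to 38714542), Nr0b1 on X (86191775 to 86195947), Tcf21 on 10 (22817263 to 22820143) and Gata6 on 18. The 250 bases before the RefSeq transcription start (build GRCm38.p6) were matched for 4 of the 9 genes, Nr0b1, Tcf21, Sox8 and Gata1. Sox9, Wt1, Gata4, Gata6 and Nr5a1 were not matched. For Nr0b1 and Tcf21 the window is printed because it holds the letters of a motif of another factor of the set, in capitals. For Gata1 it is printed to show which of the gene's starts was used. The Gata1 window lies inside the annotated gene, whose upstream end on the minus strand is at 7976663. Each printed window runs 5′ to 3′ on the gene's own strand. Nr0b1 lies at chrX:86191525-86191774 on the plus strand, Tcf21 at chr10:22820144-22820393 and Gata1 at chrX:7967911-7968160, both on the minus strand.
Nr0b1: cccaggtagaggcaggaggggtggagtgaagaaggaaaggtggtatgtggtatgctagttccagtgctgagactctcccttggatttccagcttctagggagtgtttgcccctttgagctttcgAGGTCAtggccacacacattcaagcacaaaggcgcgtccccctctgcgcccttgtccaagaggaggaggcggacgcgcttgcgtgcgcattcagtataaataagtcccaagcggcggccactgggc
Tcf21: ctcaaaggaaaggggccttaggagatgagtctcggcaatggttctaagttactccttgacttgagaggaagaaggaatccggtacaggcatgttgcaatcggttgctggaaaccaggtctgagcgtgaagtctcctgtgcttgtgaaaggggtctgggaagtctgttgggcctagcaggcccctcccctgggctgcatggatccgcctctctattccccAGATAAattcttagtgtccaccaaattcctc
Gata1: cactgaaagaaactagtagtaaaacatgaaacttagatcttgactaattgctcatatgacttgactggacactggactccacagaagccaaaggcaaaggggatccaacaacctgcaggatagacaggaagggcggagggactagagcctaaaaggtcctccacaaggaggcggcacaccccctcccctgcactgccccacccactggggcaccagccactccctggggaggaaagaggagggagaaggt

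In the Nr0b1 window the nuclear receptor core that Nr5a1 reads, AGGTCA, ends 121 bases before the start. Of 32851 promoter windows in the reference, 14.0% hold that core on either strand. In the Tcf21 window the GATA letters AGATAA begin 31 bases before the start. The other GATA forms searched for were AGATAG and the same pair with T as first letter, which are TGATAA together with TGATAG, and 26.5% of windows hold at least 1 of the forms. No match to these letters, to the Sox letters AACAAT or AACAAAG (13.8% of windows), to the Wt1 letters GNGTGGGNG (12.7%) or to the Tcf21 letters CANCTG (44.8%) lay in the Gata1 or Sox8 window, where N is any base and both strands were read. A match is a run of letters and says nothing of whether the factor binds. Mouse Sertoli cells are known to begin Gata1 at a first exon farther upstream than the start shown, which is the start used in red cells. The deposited tables list 1 RefSeq transcript and 1 assembled model for Gata1 and give a single count for both, so use of the separate starts was not measured.

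Every factor had a lower mean level in the libraries labelled cKO than in those labelled control, at 37.0% of the control level for Nr5a1 and up to 63.8% for Gata6. All 9 passed the filter on low counts, and all 9 log2 fold changes (labelled cKO minus labelled control) were negative, from -1.43 to -0.65 with a median of -0.99; over all 18269 genes tested, 50.5% were negative and the median was -0.0048. In 8 of the 9 genes every library labelled cKO lay below every library labelled control after scaling, which was so for 19.8% of all genes, and 37.9% of all genes did not overlap in either direction. By edgeR's quasi-likelihood test none of the 9 passed an adjusted p of 0.05, and 0.0% of all genes passed in that direction. At an unadjusted edgeR p of 0.05 all 9 passed (the p-values, from the fit across all genes and not an exact test, ran from 0.00676 to 0.0385), against 18.8% of all genes lower and 8.85% higher. In bulk tissue, fewer cells of a type and less RNA per cell cannot be told apart.

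**Figure D1:**
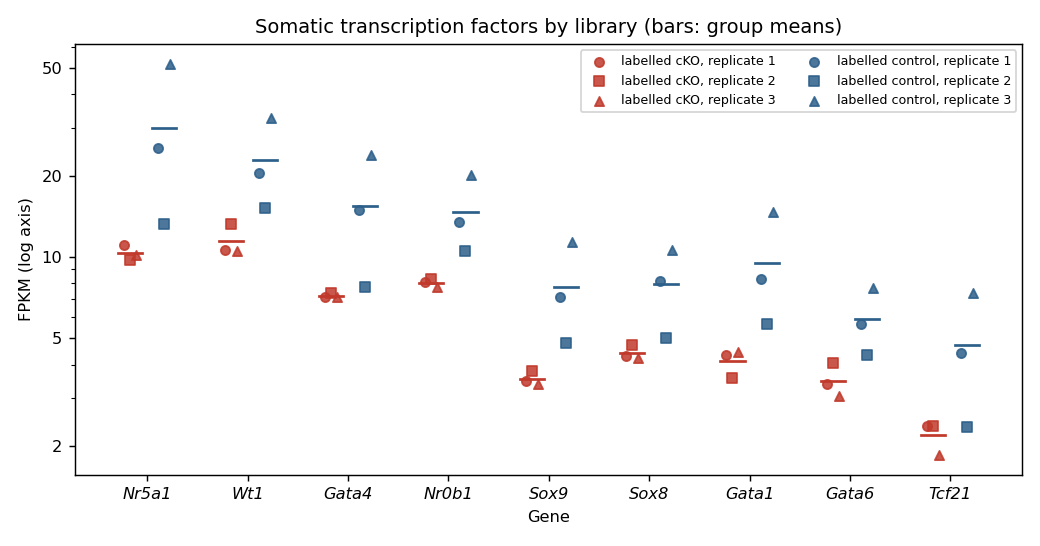
FPKM (fragments per kilobase of transcript, scaled to depth; log axis) of the 9 genes in each of the 6 libraries, with those labelled cKO in red at the left of each gene and those labelled control in blue at the right; bars are group means and marker shapes are replicate numbers. Control replicate 3 is the highest library for every gene, and control replicate 2 is the lowest of the control group for every gene, falling among the libraries labelled cKO for Tcf21.

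Among the Sertoli factors, Sox9 had 3.49, 3.78 and 3.39 FPKM in the libraries labelled cKO, against 7.13, 4.79 and 11.4 FPKM in those labelled control. The groups did not overlap, and control replicate 3 stood at 2.94 times the cKO mean on the scaled count while replicate 2 stood at 1.30 times. The log2 fold change was -1.02 (SE 0.28, n = 3 each), a level of 49.3% in the libraries labelled cKO. edgeR's unadjusted p was 0.00676 and its adjusted p 0.166, while DESeq2 gave an adjusted p of 0.0197, and the alternatives spread this adjusted p over 2.1e-06 to 0.377. Permuting the 6 libraries (exact test, two-sided) gave p = 0.1, which is the lowest value that 3 against 3 can reach.

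Sox8, which shares the Sox9 type of DNA-binding domain, had 4.30, 4.74 and 4.25 FPKM in the libraries labelled cKO, against 8.13, 5.03 and 10.6 FPKM in those labelled control. Control replicate 2 was the nearest to the libraries labelled cKO, just above cKO replicate 2, and there was no overlap. Its log2 fold change was -0.73 (SE 0.24), a level of 60.3% in the libraries labelled cKO. The ratio of Sox9 to Sox8 FPKM within a library was 0.812, 0.797 and 0.798 in the libraries labelled cKO, against 0.877, 0.952 and 1.08 in those labelled control. All 3 ratios labelled cKO were thus below all 3 labelled control (two-sided exact permutation p = 0.1, the smallest possible; 8 ratios between members were computed, and apart from Nr5a1 to Gata4 the other 6 overlapped). Every expected count of the 9 genes was a whole number in every library.

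Wt1, a zinc finger factor that Sertoli cells need to keep their identity, had 10.6, 13.2 and 10.5 FPKM in the libraries labelled cKO, against 20.5, 15.2 and 32.6 FPKM in those labelled control. The groups did not overlap in FPKM, but on the scaled count cKO replicate 2 and control replicate 2 were nearly level, at 39.9 and 40.4 CPM. The fitted log2 fold change was -0.85 (SE 0.26). The tables list 1 RefSeq transcript and 2 assembled models for Wt1, and the length by which its FPKM is divided ran from 2707 to 2986 bases between libraries, the widest range among the 9, so its FPKM and its counts need not give the same ratios.

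Gata1 had 4.36, 3.57 and 4.47 FPKM in the libraries labelled cKO, against 8.30, 5.66 and 14.7 FPKM in those labelled control. No overlap was seen, and the log2 fold change of -1.10 (SE 0.32) was second in size to that of Nr5a1. Red cell genes, from the other place of Gata1 expression, had no common direction: of 10 erythroid markers 6 were tested, 3 were negative and 3 positive, with a median log2 fold change of 0.085 (-0.018 by library totals, 0.28 without control replicate 3). Their summed FPKM was 65.7 to 115 in the libraries labelled cKO and 58.3 to 83.8 in those labelled control. Single globin genes were not alike across libraries. Hbb-bs counts were 126.24, 1.2 and 145.34 in the libraries labelled cKO, against 0.81, 0 and 0 in those labelled control. Hbb-b1 counts were 150.01, 469.8 and 130.7 in the libraries labelled cKO, against 253.19, 222.1 and 329.87 in those labelled control. Whether the libraries share 1 genetic background was not tested. The mast cell genes Cpa3, Tpsb2, Mcpt4 and Cma1 were all too low to be tested and Ms4a2 was not listed; the summed FPKM of the mast cell and megakaryocyte list was 2.47 to 3.88 in the libraries labelled cKO and 3.22 to 10.3 in those labelled control.

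Nr0b1, the X-linked repressor of Nr5a1 whose promoter carries the AGGTCA core shown above, had 8.05, 8.29 and 7.74 FPKM in the libraries labelled cKO, against 13.5, 10.5 and 20.1 FPKM in those labelled control. Again the groups were apart, and the libraries labelled cKO differed from each other by a coefficient of variation of 3.45% on the scaled count, against 31.7% among those labelled control. The cKO spread is no larger than counting error: the counts 267, 274 and 254 each fall inside the 95% exact Poisson intervals of the others. Nr0b1 had a log2 fold change of -0.77 (SE 0.22).

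Of the factors that Sertoli and Leydig cells share, Nr5a1 differed most. It had 11.1, 9.74 and 10.15 FPKM in the libraries labelled cKO, against 25.2, 13.3 and 51.9 FPKM in those labelled control. The groups did not overlap, yet the libraries labelled control spanned a far wider range than the gap between groups: on the scaled count they stood at 2.26, 1.24 and 4.61 times the cKO mean. The log2 fold change was -1.43 (SE 0.42), a level of 37.0% in the libraries labelled cKO. edgeR's unadjusted p was 0.00939 and its adjusted p 0.166, DESeq2's adjusted p was 0.0154, and the alternatives reached from 4.8e-09 to 0.377.

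Gata4, which drives Sertoli and Leydig genes together with Nr5a1, had 7.11, 7.35 and 7.12 FPKM in the libraries labelled cKO, against 14.96, 7.75 and 23.8 FPKM in those labelled control. The coefficient of variation on the scaled count was 1.80% among the libraries labelled cKO, against 49.97% among those labelled control. Counting error alone covers the cKO spread, since the counts 455, 471 and 453 each fall inside the 95% exact Poisson intervals of the others. The groups did not overlap, but control replicate 2 exceeded the cKO mean by a factor of only 1.04. Gata4 thus had a log2 fold change of -0.998 (SE 0.33). The ratio of Nr5a1 to Gata4 FPKM was 1.56, 1.33 and 1.43 in the libraries labelled cKO, against 1.68, 1.71 and 2.18 in those labelled control, with no overlap (two-sided exact permutation p = 0.1, the smallest possible).

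Gata6 had 3.38, 4.04 and 3.05 FPKM in the libraries labelled cKO, against 5.64, 4.36 and 7.65 FPKM in those labelled control. The group ranges were separate, and the log2 fold change of -0.65 (SE 0.22) was the smallest in size of the 9. An antisense gene, Gata6os, overlaps Gata6 in the RefSeq annotation. Its expected counts were 34, 57 and 73 for the libraries labelled cKO, against 112, 99 and 186.01 for those labelled control. The sources used here do not give the strandedness of the libraries, so reads of the overlapping stretch could belong to either gene and the Gata6 value is uncertain to that extent. RefSeq also places the long noncoding genes Gm39488 and Gm52419 over Gata1, and Gm10824 over Tcf21. These noncoding genes were not listed in any library, and the values of Gata1 and Tcf21 carry the same limit.

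Tcf21, a basic helix-loop-helix factor of testis stroma, was the least abundant of the 9 and the only one whose groups overlapped. Its expected counts were 53, 53 and 41 in the libraries labelled cKO, against 94, 51 and 156 in those labelled control. Control replicate 2, with 51 counts (95% exact Poisson interval 38.0 to 67.1, counting error only), lay inside the range of the libraries labelled cKO. In FPKM these were 2.37, 2.38 and 1.85 for cKO and 4.41, 2.36 and 7.37 for control. The log2 fold change was -0.99 (SE 0.40), with an adjusted p of 0.173 by edgeR and a two-sided exact permutation p of 0.3.

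The order of the 9 genes by FPKM was nearly the same in every library. Nr5a1 and Wt1 took the first and second places in all 6, in either order: Nr5a1 was ahead in cKO replicate 1 and in control replicates 1 and 3, and Wt1 in the other 3 libraries. Group means were 10.3 ± 0.676 FPKM in the libraries labelled cKO and 30.1 ± 19.8 FPKM in those labelled control for Nr5a1, and 11.4 ± 1.55 FPKM in the libraries labelled cKO and 22.7 ± 8.89 FPKM in those labelled control for Wt1 (SD, n = 3 each), so these neighbours did not differ beyond their spread. Gata4 and Nr0b1 shared places 3 and 4, at 7.19 ± 0.136 and 8.03 ± 0.276 FPKM in the libraries labelled cKO and 15.5 ± 8.04 and 14.7 ± 4.93 FPKM in those labelled control. Below them, Gata1 (4.13 ± 0.491 in cKO, 9.54 ± 4.63 in control), Sox8 (4.43 ± 0.270 in cKO, 7.92 ± 2.79 in control), Sox9 (3.55 ± 0.203 in cKO, 7.77 ± 3.35 in control) and Gata6 (3.49 ± 0.504 in cKO, 5.88 ± 1.66 in control) lay within each other's spread in the libraries labelled control. In the libraries labelled cKO, Nr0b1 was above Gata4 and Sox8 above Sox9 in all 3. Tcf21 was last in all 6. Averaged over the 6 libraries, the 9 genes ranked from 4359 to 11288 among the 23253 listed genes.

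Which factors passed a test depended on single libraries. Control replicate 3 was the highest and control replicate 2 the lowest of the control group for all 9 genes, an order that 34.7% of all genes shared. Without control replicate 2, edgeR called all 9 genes lower (adjusted p = 0.00848 to 0.0199), while 20.7% of all genes passed in that direction. Without control replicate 3, edgeR called 0 of the 9 and 0.0% of all genes lower, and the median log2 fold change of the 9 was -0.55. With all 6 libraries DESeq2 called 6 of the 9 lower (Sox9, Wt1, Gata1, Gata4, Nr5a1 and Nr0b1), against 8.04% of all genes. Without control replicate 3 it called 2 (Sox9 and Nr5a1), against 4.35%, and gave Tcf21 no adjusted p. Here and below, DESeq2 shares are of the genes given an adjusted p. These were 16843 with all 6 libraries, 12765 without control replicate 3 and 18640 without control replicate 2. The 3 factors that DESeq2 did not call with all 6 libraries had adjusted p-values of 0.0646 (Sox8), 0.0770 (Gata6) and 0.120 (Tcf21). DESeq2 without control replicate 2 called all 9, against 20.7% of all genes lower. No factor was called higher in any of these fits, where the share of all genes called higher was 0.0% for edgeR and 0.445% for DESeq2 with all 6 libraries, 11.0% and 15.4% without control replicate 2, and 0.0108% and 1.95% without control replicate 3. limma on log2(FPKM + 1) or log2(FPKM + 0.1) called 0 of the 9, with 0.0% of all genes lower and 0.0065% higher in each. The sign of every factor was negative with each library left out.

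**Figure D2:**
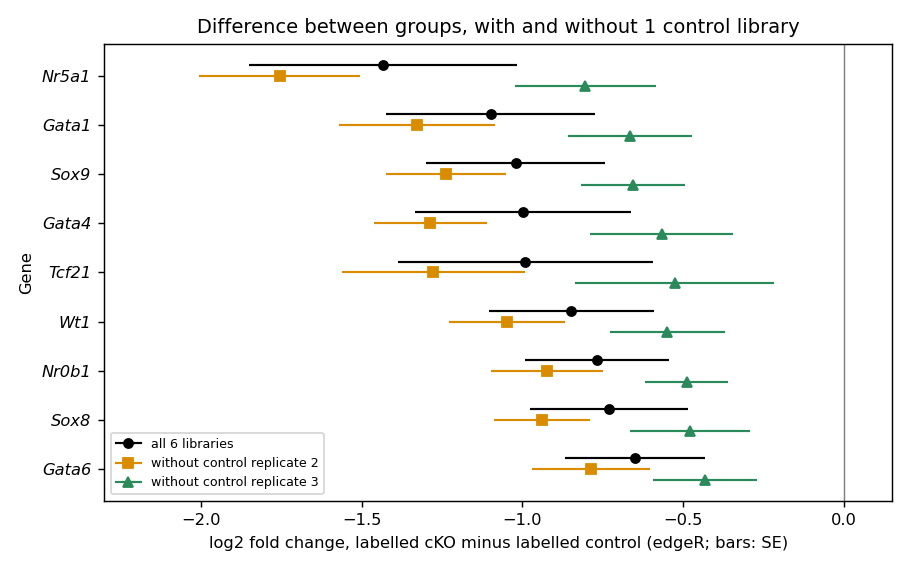
Log2 fold change with its SE for each factor, labelled cKO minus labelled control, in edgeR with all 6 libraries, without control replicate 2 and without control replicate 3. Every point lies left of 0, farthest without control replicate 2 and nearest without control replicate 3, as for Nr5a1 at -1.75 and -0.80.

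To see how each factor moved beside the cells that make it, its log2 CPM was set against the mean log2 CPM of a marker list within the same library, which removes library scaling. The list held 18 Sertoli, 15 Leydig or 14 stromal and peritubular genes, none of them among the 9. Sertoli markers had a median log2 fold change of -0.97 with 18 of 18 negative, Leydig markers -1.89 with 15 of 15 negative, and stromal and peritubular markers -0.72 with 13 of 14 negative. Without control replicate 3 these medians were -0.54, -1.07 and -0.43. edgeR called 0 members of each list, and DESeq2 called 14 Sertoli, 10 Leydig and 5 stromal and peritubular markers lower and none higher, against 8.04% of all genes lower. Summed FPKM of the Sertoli markers was 1164 to 1220 in the libraries labelled cKO and 1512 to 3895 in those labelled control, that of the Leydig markers was 1349 to 1456 in the libraries labelled cKO and 1849 to 9843 in those labelled control, and that of the stromal and peritubular markers was 84.0 to 104 in the libraries labelled cKO and 102 to 267 in those labelled control.

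Sox9 kept a nearly constant level beside the Sertoli markers. Its relative level on the log2 scale was -1.12, -0.98 and -1.12 in the libraries labelled cKO, against -0.99, -1.01 and -1.08 in those labelled control. The whole range over the 6 libraries was 0.14, while its own scaled count ranged from 14.4 CPM in cKO replicate 3 to 44.4 CPM in control replicate 3. The difference of the group means was -0.047 (two-sided exact permutation p = 0.4). The other Sertoli factors also overlapped between groups on this measure: the difference was -0.11 for Gata1 (p = 0.4), 0.092 for Wt1 (p = 0.8), 0.17 for Nr0b1 (p = 0.3) and 0.22 for Sox8 (p = 0.2), all by the same exact permutation test of 3 against 3. No difference of any size can pass 0.05 in a test that stops at 0.1, so these values do not show that the relative levels are equal. In all, 12 pairs of a factor and a list were compared.

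The factors shared with Leydig cells were set beside 2 lists. Within a library, the step from the Sertoli to the Leydig list is the same for every gene, as it comes from the lists alone. Leydig markers had a median log2 fold change of -1.89 and Sertoli markers one of -0.97. A higher relative level beside the Leydig list is therefore not particular to these factors. Nr5a1 beside the Sertoli markers was at 0.039, -0.12 and -0.044 in the libraries labelled cKO, against 0.33, -0.050 and 0.61 in those labelled control, with overlap and a difference of -0.34 (two-sided exact permutation p = 0.3). Beside the Leydig markers it was at 0.29, 0.13 and 0.42 in the libraries labelled cKO, against -0.29, -0.017 and -0.47 in those labelled control, with no overlap and a difference of 0.54 (exact permutation p = 0.1, the smallest possible). Gata4 and Gata6 beside the Leydig markers were likewise higher in all 3 libraries labelled cKO, by 0.91 and 1.15 (exact permutation p = 0.1 each), and overlapped beside the Sertoli markers, with differences of 0.026 and 0.27. Tcf21 beside the stromal and peritubular markers overlapped, with a difference of -0.18 (exact permutation p = 0.3). With the log2 of the summed FPKM of the Leydig markers in place of their mean log2 CPM, the Nr5a1 difference was 0.26.

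**Figure D3:**
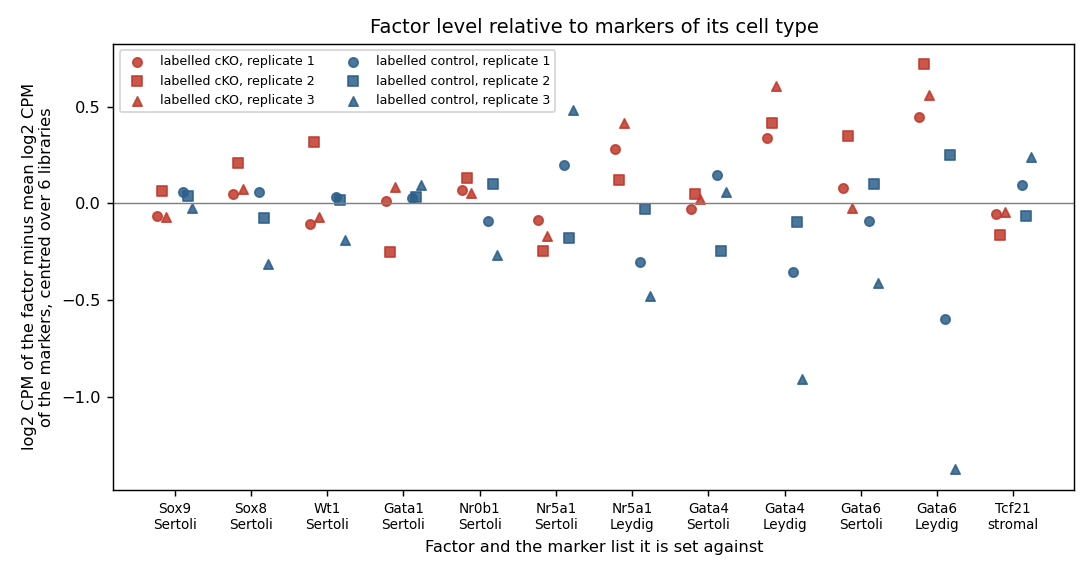
Log2 CPM of each factor minus the mean log2 CPM of the marker list named under it, centred on the mean over the 6 libraries, with libraries labelled cKO in red at the left and those labelled control in blue at the right. Sox9 beside the Sertoli markers spans 0.14, and Gata6 beside the Leydig markers spans 2.09, with the 3 libraries labelled cKO above all 3 labelled control.

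Genes known to be regulated through these factors had mostly negative fold changes; several of them are also in the marker lists above. Of 15 steroidogenic and gonadal genes downstream of Nr5a1 and Gata4, 14 had a negative log2 fold change, with a median of -1.53 (-0.93 without control replicate 3), where 50.5% of all genes were negative. edgeR called 0 of them and 0.0% of all genes lower; DESeq2 called 6 lower (Cyp17a1, Inha, Hsd17b3, Fdxr, Prlr and Lhcgr) and 0 higher, against 8.04% of all genes lower and 0.445% higher. Insl3, the Leydig hormone of testis descent, was at 1022 ± 79.8 FPKM in the libraries labelled cKO and 3840 ± 3122 FPKM in those labelled control. Cyp17a1, which makes androgen precursors, was at 98.5 ± 13.0 FPKM in the libraries labelled cKO and 319 ± 208 FPKM in those labelled control. Cyp11a1, which begins steroid synthesis, was at 61.2 ± 5.90 FPKM in the libraries labelled cKO and 177 ± 122 FPKM in those labelled control (SD, n = 3 each). Of the Sertoli genes regulated through Sox9, Sox8, Wt1 or Gata4, 14 of 15 were tested and 14 of 14 were negative, with a median of -0.98 (-0.59 without control replicate 3). Of these, edgeR called 0 and DESeq2 called 9 lower and 0 higher, against the same shares of all genes, 0.0% and 8.04% lower. Ptgds, a prostaglandin synthase, was at 238 ± 37.8 FPKM in the libraries labelled cKO and 744 ± 453 FPKM in those labelled control. Cldn11, a claudin of the blood-testis barrier, was at 36.6 ± 0.199 FPKM for cKO and 78.7 ± 37.4 FPKM for control, and the cadherin Cdh2 at 16.1 ± 0.431 FPKM for cKO and 19.2 ± 3.27 FPKM for control. Fgf9, a gonadal signal of the embryo, was too low to be tested.

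Partners and other regulators of the somatic gonad were mixed. Of 28 genes 24 were tested, 16 were negative and 8 positive, with a median of -0.32; edgeR called 0 and DESeq2 called 4 lower, among them Cited2, Dmrt1 and Tcf3, and 0 higher, against 8.04% of all genes lower. Cited2, a coactivator that acts with Wt1 on Nr5a1 in the embryonic mouse gonad, had 9.10, 9.27 and 7.86 FPKM in the libraries labelled cKO, against 20.1, 11.6 and 30.2 FPKM in those labelled control. It shows the control order of replicate 3 highest and replicate 2 lowest, as the 9 factors do.

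The cofactors that bind GATA proteins had other patterns. Zfpm2 (FOG2), the partner of Gata4, had 3.06, 3.87 and 3.70 FPKM in the libraries labelled cKO, against 2.73, 2.73 and 2.77 FPKM in those labelled control, so that all 3 labelled cKO were higher; its log2 fold change was 0.47 (SE 0.14; 0.37 by library totals). Zfpm1 (FOG1), the partner of Gata1, was at 14.7 ± 1.71 FPKM in the libraries labelled cKO and 16.5 ± 3.53 FPKM in those labelled control, with overlap. Nr4a1, an immediate early nuclear receptor, was at 19.2 ± 0.307 FPKM in the libraries labelled cKO and 14.7 ± 3.34 FPKM in those labelled control, with all 3 labelled cKO higher. Its control libraries were at 17.06, 16.26 and 10.92 FPKM, so control replicate 3 was the lowest. After scaling, 3297 of the 18269 genes tested had every library labelled cKO above every library labelled control. The embryonic factors Sry, Foxl2, Nr2f1 and Nr5a2 were too low to be tested.

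Relatives of the factors in the Sox and Gata families lay on both sides of 0. Of 18 other Sox family genes 14 were tested, with 8 negative and 6 positive and a median of -0.096 (-0.19 by library totals, -0.16 without control replicate 3). edgeR called 0 of them. DESeq2 called Sox4 and Sox12 lower and none higher, against 8.04% of all genes lower and 0.445% higher. Sox30, which germ cells need after meiosis in the mouse, was the most abundant, with 85.9, 86.7 and 83.0 FPKM in the libraries labelled cKO, against 81.6, 78.6 and 57.1 FPKM in those labelled control. Sox5 was at 20.8 ± 0.524 FPKM in the libraries labelled cKO and 17.3 ± 2.08 FPKM in those labelled control, and Sox6 at 13.9 ± 0.440 FPKM for cKO and 11.8 ± 1.29 FPKM for control (SD, n = 3 each). For these 3 genes every library labelled cKO was above every library labelled control, and control replicate 3 was the lowest library, the reverse of its place for Sox9 and Sox8. Separation with the libraries labelled cKO higher was common, and after scaling it was seen in 3297 of the 18269 genes tested. No test of the difference between the somatic and the other family members was made.

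Of 8 other GATA-type zinc finger genes 7 were tested, 3 negative and 4 positive, with a median of 0.15 (0.047 by library totals, 0.057 without control replicate 3). Gata2, a factor of blood progenitors and vessels, had 7.05, 8.60 and 6.59 FPKM in the libraries labelled cKO, against 5.56, 6.04 and 5.54 FPKM in those labelled control, with all 3 labelled cKO higher. The same separation was seen after scaling in 3297 of the 18269 genes tested. Gatad1 and Gatad2a, general chromatin proteins with a GATA-type finger, were at 45.4 ± 1.65 and 21.9 ± 0.887 FPKM in the libraries labelled cKO and at 42.85 ± 2.02 and 25.05 ± 2.18 FPKM in those labelled control. DESeq2 called Trps1 alone (lower), against 8.04% of all genes lower. Trps1 was at 0.12, 0.22 and 0.16 FPKM in the libraries labelled cKO and 0.51, 0.21 and 1.35 FPKM in those labelled control. The close relatives of Nr5a1 and Nr0b1, Nr5a2 and Nr0b2, were both below the count filter, and of 4 relatives of Tcf21 only Tcf23 and Tcf24 were tested, both negative.

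**Figure D4:**
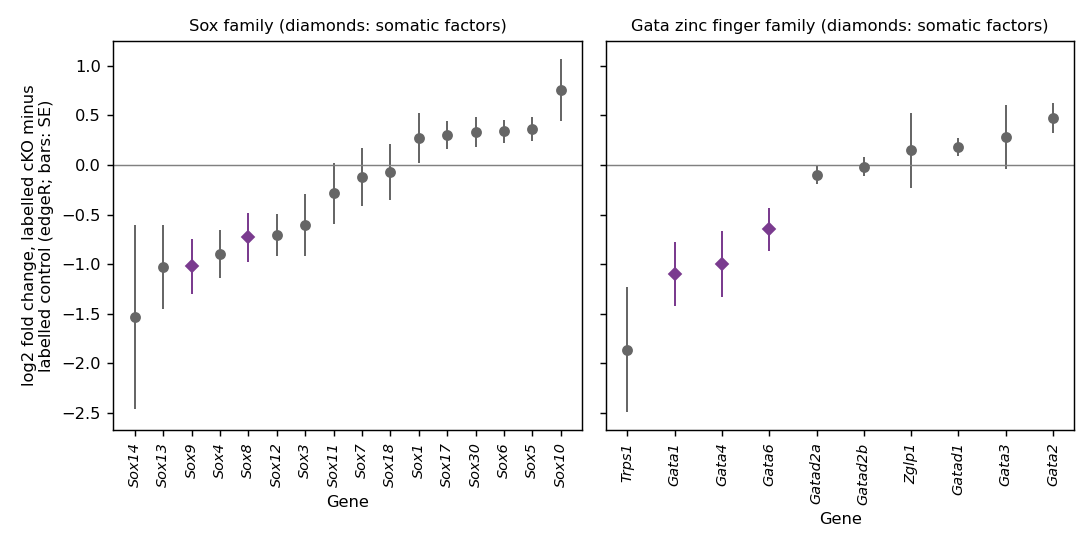
Log2 fold change with its SE, labelled cKO minus labelled control in edgeR, for tested genes of the Sox family (left) and of the GATA-type zinc finger family (right), with Sox8, Sox9, Gata1, Gata4 and Gata6 as diamonds. The 5 somatic factors lie at -0.65 or below, as do Sox4 (-0.90), Sox12 (-0.70), Sox13 (-1.03), Sox14 (-1.53) and Trps1 (-1.86), while Sox5, Sox6, Sox30 and Gata2 lie above 0.

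On the chromosome, the nearest annotated neighbours of the factors lay on both sides of 0. Nr6a1, a nuclear receptor gene of germ cells that lies 8827 bases from Nr5a1, counted 4162, 4177 and 4290 in the libraries labelled cKO, against 3745, 3996 and 2797 in those labelled control, so all 3 labelled cKO were higher (log2 fold change 0.30). Such separation was seen after scaling in 3297 of the 18269 genes tested. Lmf1, 8488 bases from Sox8, had 1699, 1716 and 1676 counts in the libraries labelled cKO, against 1510, 1522 and 1313 in those labelled control (0.26). Others were negative: Neil2, 4760 bases from Gata4, had 7, 7 and 11 counts in the libraries labelled cKO, against 13, 14 and 22 in those labelled control (-0.92), and Slc39a11 beside Sox9 was at -0.57 with overlap. Hdac6, 11213 bases from Gata1, was negative too, with 1193, 1235 and 1177 counts in the libraries labelled cKO, against 2324, 1451 and 3519 in those labelled control (-0.98), close to the value for Gata1 itself.

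Genes most like each factor were sought by the root mean square difference of centred log2 CPM over the 6 libraries, among 12320 genes. The nearest to Sox9 were St8sia2, Cenpb and Rnd3, at 0.023, 0.027 and 0.029, where the median gene was at 0.57. The nearest to Nr5a1 were Cd81, Pgrmc1 and Acadl (0.034 to 0.039), and to Wt1 Myl9, Tpbgl and Hmg20b (0.051 to 0.067). Sox8 was nearest to Cdc42bpb, Patz1 and Klf16 (0.017 to 0.033), Nr0b1 to Ppp2r1a, Vps18 and Phc3 (0.022 to 0.030), and Gata4 to Zfp703, Slc46a1 and Nfkbia (0.050 to 0.053). Gata1 was nearest to Dpp7, Pag1 and Fndc3b (0.047 to 0.060), Gata6 to Smoc1, Ccng2 and Gpsm1 (0.046 to 0.050) and Tcf21 to Npdc1, H2-D1 and Cxcl16 (0.034 to 0.042).

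Within the set, Sox8 and Nr0b1 were each other's nearest, at 0.10, as were Gata4 and Tcf21, at 0.11. The nearest of the set was Wt1 for Sox9 (0.12), Sox8 for Wt1 (0.12), Sox9 for Gata1 (0.16), and Nr0b1 for Gata6 (0.11). Nr5a1 stood farthest from the rest, its nearest being Gata1 at 0.22.

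The part of other cell types in these differences was not tested, and the values of their markers were as follows. edgeR called 0 members of each list. Macrophage markers were negative in 8 of 8 genes with a median of -1.45 (-0.83 without control replicate 3), and DESeq2 called 5 of them lower, against 8.04% of all genes. Their summed FPKM was 41.9 to 49.0 in the libraries labelled cKO and 48.5 to 227 in those labelled control, so the ranges overlapped. Endothelial markers were negative in 6 of 7 genes with a median of -0.53, which was -0.061 without control replicate 3, and DESeq2 called none. Their summed FPKM also overlapped, at 10.6 to 15.3 in the libraries labelled cKO and 14.3 to 25.8 in those labelled control. Spermatid markers were positive in 8 of 8 genes with a median of 0.37 (0.23 without control replicate 3), and spermatocyte markers in 7 of 7 with a median of 0.30 (0.19), with no gene called by DESeq2. Spermatogonial markers were negative in 4 of 7 genes with a median of -0.32 (-0.31 without control replicate 3), and DESeq2 called Kit alone (lower). Of 5 markers of the adrenal cortex, the other main site of Nr5a1 and Nr0b1, Cyp11b1, Cyp11b2 and Mc2r were below the count filter, at no more than 0.20 FPKM in any library. The other 2 were tested: Akr1b7 was at 3.26 ± 0.446 FPKM in the libraries labelled cKO and 3.03 ± 0.200 FPKM in those labelled control, and Cyp21a1 was at 2.53 ± 1.69 FPKM in the libraries labelled cKO and 14.7 ± 10.1 FPKM in those labelled control. Of 6 mesothelium and tunica markers, a further source of Wt1, 3 were tested with a median of 0.0025 (-0.11 by library totals, 0.29 without control replicate 3), and their summed FPKM was 8.18 to 9.14 in the libraries labelled cKO and 7.67 to 10.3 in those labelled control.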

How the data were processed

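Messenger RNA of 6 testis libraries was analysed, 3 labelled cKO and 3 labelled control. Each deposited table holds an expected count (an estimated count, not normalized), an FPKM value and a length per gene, per the file headers; the submitters' processing notes name RSEM, HISAT2 2.0.4, Bowtie2 2.2.5, bcl2fastq 2.16, DESeq2 and build mm10, with no role or order. The authors' FPKM is relative to length and depth. Only genes at 0.01 FPKM or more are listed, and one not listed was counted as 0. Expected counts were rounded, filtered with filterByExpr (minimum count 10, total 15), scaled by TMM and passed to edgeR 4.0.16 under R 4.3.3 (quasi-likelihood F-test, Benjamini-Hochberg over 18269 genes at 0.05). Scaled levels are CPM, or log2 CPM with a prior count of 2. Alternatives were DESeq2 1.42.0, limma 3.58.1 on log2(FPKM + 1) and log2(FPKM + 0.1), other scalings and filters, each library left out, and a replicate block; DESeq2 without control replicate 2 or 3 was added after seeing the data. The tests were tested on simulated counts with a single spread for all genes and both groups. The unequal spread of the groups seen here was not simulated. Members and gene lists were chosen with earlier results of these data known, so lists are described by counts and medians. The genes named are the 9 factors, the 3 nearest genes to each among genes that reach 1 FPKM in 3 libraries or more, the 3 most abundant genes of each list of regulators, targets and relatives and any gene past the threshold; other named genes were chosen after their values were seen. Names and positions came from RefSeq on GRCm38.p6, the primary assembly of mm10. Libraries held 17689205 to 18822050 counts; 95% exact Poisson intervals cover counting error only.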

Additional observations from a re-analysis of the deposited data

How the results depend on the processing

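All 9 factors kept a negative log2 fold change under every alternative in which they could be tested; Tcf21 could not be with at least 5 CPM in at least 3 libraries. With all 6 libraries edgeR called 0 genes lower and 0 higher and 0 of the factors; at an unadjusted p of 0.05 it had 3439 genes lower and 1617 higher. DESeq2 called 1354 genes lower and 75 higher, and 6 factors lower. limma on log2(FPKM + 1) and on log2(FPKM + 0.1) called 0 genes lower and 1 higher in each, and no factor. Leaving out 1 library in edgeR gave between 0 and 3851 genes lower, between 0 and 2049 higher and between 0 and 9 factors lower; both maxima came without control replicate 2. Without cKO replicate 2 edgeR called 3 genes higher, without cKO replicate 3 it called 1, and without control replicate 3 it called 2. DESeq2 without control replicate 2 called 3851 genes lower, 2879 higher and 9 factors lower, and without control replicate 3 it called 555, 249 and 2, with no adjusted p for Tcf21. Over the libraries left out in edgeR, the log2 fold change ran from -1.75 to -0.80 for Nr5a1, from -1.24 to -0.66 for Sox9 and from -0.79 to -0.43 for Gata6. By library totals in place of TMM the median of all genes was -0.10 and that of the 9 factors -1.10. With the replicate number as a replicate block, 0 factors and 0 genes passed, as without it, and the Nr5a1 change was -1.23; same-numbered libraries did not deviate together (correlations 0.043, -0.0067 and -0.039), so the numbers were not taken as pairs. The relative level of Nr5a1 beside the Leydig markers, 0.54, was 0.26 with their summed FPKM. The cause of these changes was not tested beyond the library left out. Counts were lowest for Tcf21, at 41 to 156 per library.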
